A study of Homo sapiens with 6 samples.

Results

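The cytosolic heat shock chaperones and their transcription factor HSF1 were followed here as 10 genes: HSF1, HSPA8, HSPA1B, HSPH1, HSPA4, BAG3, DNAJB1, HSP90AA1, HSP90AB1 and HSPB1. Every probe of the bead array whose platform symbol was one of these was taken, which gave 13 of 22184 probes, and each probe is given separately. The study compared SH-SY5Y cells treated with atrazine, a triazine herbicide, with SH-SY5Y cells treated with the vehicle dimethyl sulfoxide (DMSO), with 3 arrays in each group. SH-SY5Y is an established human neuroblastoma line of noradrenergic character, and both groups were grown in the same serum-containing medium. Neither the atrazine dose nor the exposure time is given in the sources used here. Replicates are numbered in the labels without a statement that they were separate cultures, so p-values measure the spread between these samples only, which may be technical.

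Chaperones of the cytosol keep proteins from aggregating and help them to fold. The HSP70 proteins grip exposed hydrophobic stretches, J-domain proteins bring them their substrates and start ATP hydrolysis, and nucleotide exchange factors let the substrate go. HSP90 acts later, on kinases and steroid receptors among others, and small heat shock proteins hold unfolded proteins without ATP. When unfolded proteins build up, HSF1, which HSP70 and HSP90 otherwise hold inactive, forms trimers and binds heat shock elements, inverted repeats of GAA, in the promoters of many of these genes. HSF1 is controlled mainly at the level of the protein, so the amount of its mRNA is not a measure of its activity.

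Of the 13 probes, 8 were lower and 3 higher in atrazine, and 2 did not pass the threshold (limma, Benjamini-Hochberg adjusted p under 0.05 over all tested probes). The 8 falls covered the HSP70 genes HSPA8 and HSPA1B, the HSP110 genes HSPH1 and HSPA4, the J-domain gene DNAJB1 and the brighter probe of HSP90AA1. The 3 rises were those of HSP90AB1, HSPB1 and BAG3. HSF1 and the second probe of HSP90AA1 did not pass. These counts are to be read against a background in which 39.6% of the 12969 tested probes were lower and 27.7% higher, 67.3% in all. The median log2 change was -0.76 over the 13 probes and -0.18 over all tested probes. All 13 probes passed the detection filter, which asked for a detection p-value under 0.05 on every array of at least 1 group. Both HSPA4 probes passed it through the DMSO arrays alone, a selection that favours falls. Among probes detected on all 6 arrays, in the same fit, 6 of 11 member probes were lower and 3 higher, beside 30.4% and 33.8% of 9055 probes. The groups did not overlap for 11 of the 13 probes (8 lower, 3 higher), and for 75% of all tested probes (44.5% lower, 30.5% higher).

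Several properties of the arrays moved with the treatment, and their part in the changes of the chaperone genes was not tested. The mean raw signal was 235.1 to 311.3 intensity units on the atrazine arrays, against 532.2 to 939.1 on the DMSO arrays, and 43.6% to 52.0% of probes were above background in atrazine, against 58.9% to 59.8% in DMSO. Atrazine replicate 2 stood apart, with correlations across probes of 0.963 and 0.968 to the other atrazine arrays, which correlated with each other at 0.994. DMSO arrays correlated at 0.992 to 0.995, and arrays of different groups at 0.805 to 0.888. Without atrazine replicate 2, 9 of the 13 probes were lower and 3 higher (42.1% and 29.9% of all tested probes, 72% in all). Of 12 noradrenergic neuroblastoma markers on the array, 11 were above background on all arrays of both groups and HAND2 on none, with a summed raw signal of 22537 to 27595 in atrazine and 63879 to 103803 in DMSO. On the normalized scale 7 of 11 tested noradrenergic probes were lower and 2 higher, beside 39.6% and 27.7% of all tested probes. Under median scaling 8 were lower and 1 higher (68.5% and 15.3% of all), and under housekeeping scaling 6 and 3 (31.8% and 37.5%). The largest falls were DBH at -1.63 (adjusted p = 3.08e-05) and CHGA at -1.63 (adjusted p = 0.00131). GAP43 rose by 1.13 (adjusted p = 6.88e-05) and TH, near background, by 0.95 (adjusted p = 0.000126), while GATA3 and ISL1 did not pass. TH was higher under each of the 3 scalings, and GAP43 gave -0.079 (adjusted p = 0.576) under median scaling. Of 10 markers of the mesenchymal-type cells that the line can hold, 3 were above background on all atrazine arrays and 4 on all DMSO arrays (summed signal 2238 to 3493, against 2499 to 4490), and FN1, COL3A1, TGFBI, NOTCH2 and YAP1 on none. Of the 5 tested mesenchymal probes, VIM (1.60, adjusted p = 0.000128), COL1A1 (2.43, adjusted p = 3.76e-05) and PRRX1 (1.12, adjusted p = 0.000471) were higher under each of the 3 scalings compared below. SNAI2 was lower (-1.21, adjusted p = 6.25e-05) but did not pass under housekeeping scaling (-0.13, adjusted p = 0.493), and CD44 did not pass (-0.57, adjusted p = 0.0944). Of 13 markers of leukocytes, endothelium, epithelium, liver and glia, 3 were detected throughout in atrazine (PTPRC, PECAM1, KRT18) and 3 in DMSO (EPCAM, KRT8, KRT18). ALB, APOA1, CD14, CDH5 and GFAP were detected on none. The summed signal of the 13 was 1244 to 1499 in atrazine, against 1518 to 2228 in DMSO. Of their 6 tested probes 2 were lower and 3 higher, but 0 lower and 6 higher under housekeeping scaling. The KRT18 probes went opposite ways, at -0.72 (adjusted p = 0.00117) and 1.13 (adjusted p = 0.000373). In a bulk sample, fewer cells of a type and less RNA per cell cannot be told apart.

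The scaling between arrays set the direction of some calls, and 3 scalings were therefore compared. The median log2 change of all tested probes was -0.18 after quantile normalization, -0.895 after median scaling and 0.041 after scaling to housekeeping genes, and rises made up 41.2%, 18.2% and 54.1% of all calls. The same 8 probes were lower under each of the 3 scalings, as were 25.9% of all tested probes. Median scaling called 11 of the 13 probes (10 lower, 1 higher; 83.7% of all tested probes) and housekeeping scaling 11 (8 lower, 3 higher; 69.3%). BAG3 was the 1 probe that was higher under each, as were 14.3% of all tested probes. Values below are normalized log2 intensities after quantile normalization unless another scaling is named, and changes are atrazine minus DMSO with n = 3 arrays in each group.

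**Figure D1:**
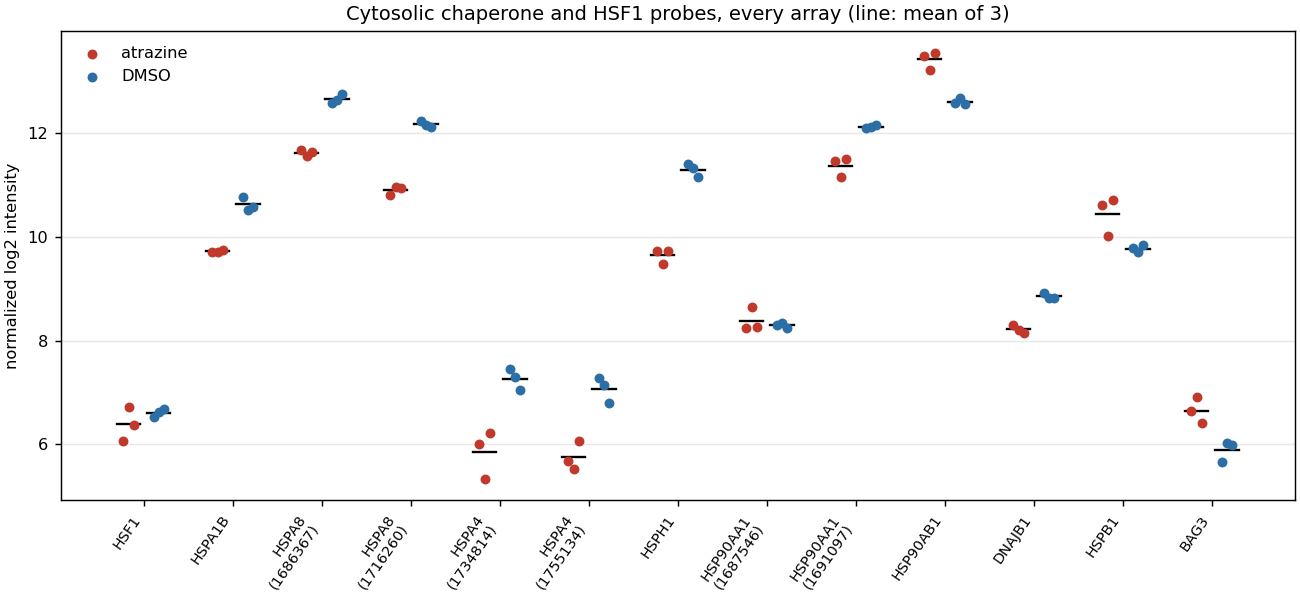
Normalized log2 intensity of each of the 13 probes (x axis; the numbers in parentheses are the probe numbers of genes with more than 1 probe) on every array, with atrazine in red, DMSO in blue and the group mean of 3 arrays as a line. The groups are separate for 11 probes and overlap for HSF1 and for the dimmer HSP90AA1 probe. Quantile normalization is shown, and HSPB1 lies the other way under median scaling.

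**Figure D2:**
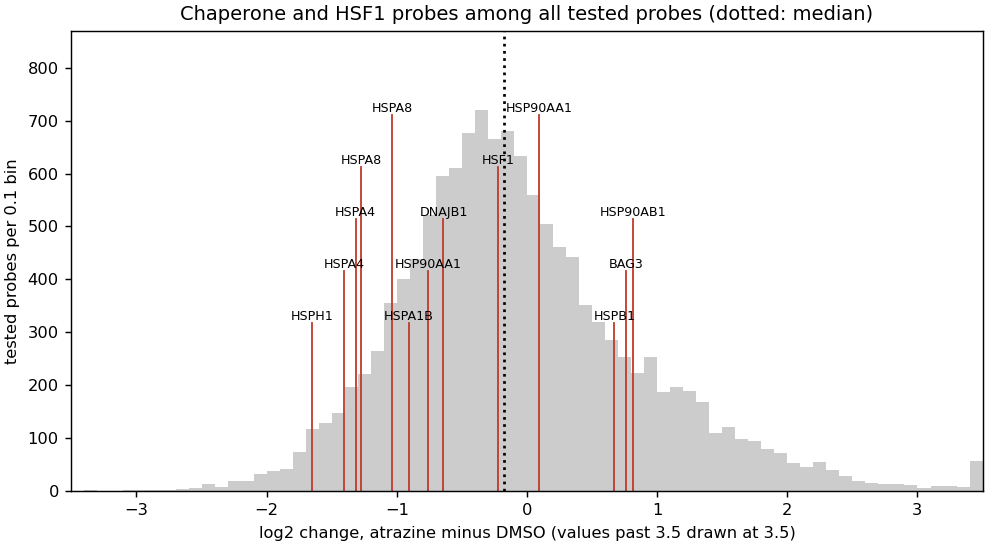
Histogram of the log2 change (atrazine minus DMSO, x axis) of all 12969 tested probes in bins of 0.1, with the 13 chaperone and HSF1 probes as labelled lines and the median of all probes (-0.18) dotted. HSPH1 lies farthest to the left at -1.65, and HSP90AB1, BAG3 and HSPB1 lie to the right of the median.

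Heat shock elements in the promoters are shown for the members that hold one, because members with and without them moved in both directions. HSF1 was left out of this search by choice, so nothing is said of its promoter. For the other 9 of the 10 genes, 14 RefSeq promoter windows were used (GRCh38.p14, 250 bases before to 50 bases after each annotated start). They were searched on both strands for a long motif, GAANNTTCNNGAA, and for the short motifs GAANNTTC and TTCNNGAA, which lie inside the long one. The long motif was in 0.49% and a short one in 13.5% of all 35116 windows. Counted by gene, over all windows of each, the shares were 0.608% and 16.2% of 27305 genes. The long motif was found for HSPA8, HSP90AA1 and HSP90AB1, a short one alone for HSPA1B, DNAJB1 and HSPB1, and neither for HSPH1, HSPA4 and BAG3. For HSP90AA1 and DNAJB1 the window of a further annotated start holds neither (chr14:102139700-102139999 and chr19:14529222-14529521). The windows of the more upstream HSP90AB1 starts hold neither as well (chr6:44245944-44246243 and chr6:44246851-44247150). The DNAJB1 stretch below is from the window chr19:14518348-14518647. Another DNAJB1 window holds a short motif just after its start (chr19:14517909-14517956), which is not shown. Which start each probe's transcript uses was not tested. No match says only that these letters are not in these windows, and a match shows letters, not binding. The stretches below run 5′ to 3′ with the motifs in capitals.
HSPA8 (chr11:123062159-123062211, minus strand, motif from 55 bases before the start): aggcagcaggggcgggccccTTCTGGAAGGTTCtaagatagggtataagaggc
HSPA8 (chr11:123062334-123062386, minus strand, motif from 230 bases before the start): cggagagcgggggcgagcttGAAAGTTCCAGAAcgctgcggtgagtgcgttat
HSP90AA1 (chr14:102087085-102087152, minus strand, motifs from 88 bases before the start): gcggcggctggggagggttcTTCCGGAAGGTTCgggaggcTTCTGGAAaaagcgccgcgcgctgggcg
HSP90AB1 (chr6:44247758-44247863, plus strand, motifs from 165 bases before the most downstream of its 3 annotated starts): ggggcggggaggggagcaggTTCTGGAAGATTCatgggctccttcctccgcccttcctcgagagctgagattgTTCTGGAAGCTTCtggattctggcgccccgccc
HSPA1B (chr6:31827613-31827660, plus strand, motif from 105 bases before the start): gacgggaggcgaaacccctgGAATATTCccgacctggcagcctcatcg
DNAJB1 (chr19:14518417-14518494, minus strand, motifs from 77 bases before the start): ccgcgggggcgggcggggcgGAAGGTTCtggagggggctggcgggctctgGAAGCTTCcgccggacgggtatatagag
HSPB1 (chr7:76302471-76302518, plus strand, motif from 182 bases before the start): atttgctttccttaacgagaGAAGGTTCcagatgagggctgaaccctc

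HSF1, the transcription factor, was measured near background in atrazine and its level was not resolved between the groups. Probe ILMN_1667060 read 6.06, 6.72 and 6.38 on the atrazine arrays, against 6.52, 6.63 and 6.68 on the DMSO arrays. The atrazine arrays lay on both sides of the DMSO arrays, with replicate 2 the highest of all 6. The log2 change was -0.22 (SE 0.17, 95% confidence interval -0.62 to 0.17, adjusted p = 0.265). It was -0.42 and passed without atrazine replicate 2 (adjusted p = 0.0124), -0.065 without atrazine replicate 1 (adjusted p = 0.722), and -0.48 with array weights (adjusted p = 0.00246). Offset 50 gave -0.16 and no background correction -0.13, neither past the threshold, while under median scaling it was -0.74 (adjusted p = 0.000887) and under housekeeping scaling 0.20 (adjusted p = 0.309). In raw intensity the probe gave 85.8, 114.7 and 119.2 units in atrazine, against 175.0, 307.3 and 178.4 units in DMSO. Detection p-values were 0.0212 to 0.0325 in atrazine and 0 to 0.00141 in DMSO.

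The HSP70 genes among the members, HSPA8 and HSPA1B, fell on every probe. HSPA8, the constitutive HSP70 that also strips clathrin from vesicles, has 2 probes annotated to different transcripts. Probe ILMN_1686367 read 11.68, 11.55 and 11.63 in atrazine, against 12.57, 12.64 and 12.76 in DMSO. Probe ILMN_1716260 read 10.80, 10.96 and 10.94 in atrazine, against 12.23, 12.16 and 12.12 in DMSO. On both probes all atrazine arrays were below all DMSO arrays, by an interval far wider than the spread within either group. The log2 changes were -1.03 (SE 0.10, adjusted p = 0.000112) and -1.27 (SE 0.097, adjusted p = 4.13e-05), a 2.05-fold and a 2.42-fold fall. The change of the first exceeded that of the second by 0.24 (exact permutation test, two-sided, p = 0.2). As a rank within the array, 1.66% to 1.87% of all probes were brighter than its first probe on the atrazine arrays, against 0.613% to 0.739% on the DMSO arrays.

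HSPA1B encodes the stress-inducible HSP70. Its probe ILMN_1660436 read 9.70, 9.71 and 9.74 in atrazine, against 10.77, 10.52 and 10.58 in DMSO. The atrazine arrays were nearly identical and all below the DMSO arrays. The log2 change was -0.91 (SE 0.10, adjusted p = 0.000232), a 1.88-fold fall, and it was -2.09 under median and -1.16 under housekeeping scaling. Raw intensity was 410.5, 457.5 and 598.8 units in atrazine, against 2948, 4282 and 2297 units in DMSO. HSPA1A, the neighbouring gene with a nearly identical coding sequence, fell as well, with a log2 change of -2.05 (SE 0.51, adjusted p = 0.00917), and -1.44 without atrazine replicate 2, where it was not above background. The sequences of the probes were not used here, so whether each probe reads only its own gene was not tested.

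The HSP110 genes among the members, HSPH1 and HSPA4, fell on all 3 of their probes. HSPH1 encodes HSP105, which releases ADP from HSP70 and works with it to dissolve aggregates. Its probe ILMN_1712888 read 9.72, 9.48 and 9.73 in atrazine, against 11.40, 11.33 and 11.15 in DMSO. No atrazine array came within 1 log2 unit of a DMSO array. The log2 change was -1.65 (SE 0.12, adjusted p = 3.28e-05), a 3.14-fold fall, and 2.47% of all tested probes had a lower change. Its position among all probes moved accordingly, with 8.93% to 10.6% of probes brighter in atrazine, against 2.13% to 2.66% in DMSO.

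HSPA4, also called APG-2, is an HSP110 gene as well. Probe ILMN_1734814 read 6.02, 5.34 and 6.23 in atrazine, against 7.45, 7.30 and 7.05 in DMSO. Probe ILMN_1755134 read 5.68, 5.53 and 6.06 in atrazine, against 7.27, 7.14 and 6.80 in DMSO. Both probes gave separate groups, but the first was above background on 2 and the second on 1 of 3 atrazine arrays, so the sizes of the falls are uncertain. The log2 changes were -1.41 (SE 0.23, adjusted p = 0.00137) and -1.32 (SE 0.18, adjusted p = 0.000534), but -0.86 and -0.78 without background correction (adjusted p = 0.000984 and 0.00061). The changes of the probes differed by 0.089 (exact permutation test, two-sided, p = 0.8). HSPA4L, a further HSP110 gene and no member, is named here after its value was seen. It read 7.47, 6.99 and 7.50 in atrazine, against 6.81, 7.02 and 6.94 in DMSO. Its log2 change was 0.39 and did not pass (adjusted p = 0.0558), was 0.58 without atrazine replicate 2 (adjusted p = 0.000821) and 0.53 under housekeeping scaling (adjusted p = 0.0115), and turned to -0.41 under median scaling (adjusted p = 0.0837).

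BAG3, a cochaperone that docks on HSP70, links it to small heat shock proteins and directs clients to autophagy, rose. Its probe ILMN_1659766 read 6.64, 6.90 and 6.41 in atrazine, against 5.66, 6.03 and 5.98 in DMSO. Every atrazine array lay above every DMSO array. The log2 change was 0.76 (SE 0.16, adjusted p = 0.00432), a 1.70-fold rise, and it was 0.41 (adjusted p = 0.0419) under median and 1.34 (adjusted p = 6.28e-05) under housekeeping scaling. With no background correction the change was 0.44 (adjusted p = 0.00595), and with an offset of 50 it was 0.54 (adjusted p = 0.00538). The signal was low throughout: raw intensity was 100.6, 121.9 and 120.5 units in atrazine, against 106.3, 205.6 and 122.2 units in DMSO. Detection p-values were 0.0155, 0.0198 and 0.0198 in atrazine, against 0.0184, 0.00283 and 0.00706 in DMSO. The rise is thus one of position relative to other probes, with 36.1% to 41.7% of probes brighter in atrazine and 46.6% to 52.3% in DMSO. The share of probes above background was lower in atrazine as well (43.6% to 52.0%, against 58.9% to 59.8%). The lowest detected normalized value was 5.676 to 6.254 on atrazine arrays and 5.322 to 5.355 on DMSO arrays, so the size of the rise is uncertain.

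DNAJB1, the main stress-inducible J-domain partner of HSP70 (HSP40), fell. Its probe ILMN_1775304 read 8.30, 8.20 and 8.15 in atrazine, against 8.92, 8.82 and 8.83 in DMSO. The groups were separate and each was tight. The log2 change was -0.64 (SE 0.096, adjusted p = 0.000856), a 1.56-fold fall, -1.78 under median and -0.85 under housekeeping scaling.

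The cytosolic HSP90 genes moved in opposite directions. HSP90AA1 encodes HSP90 alpha, the more inducible isoform. Its brighter probe ILMN_1691097 read 11.45, 11.15 and 11.49 in atrazine, against 12.09, 12.12 and 12.16 in DMSO. The atrazine arrays all lay below the DMSO arrays, for a log2 change of -0.76 (SE 0.12, adjusted p = 0.00102), a 1.69-fold fall. Its dimmer probe ILMN_1687546, annotated to another transcript of the gene, read 8.24, 8.65 and 8.26 in atrazine, against 8.30, 8.33 and 8.25 in DMSO. On this probe the groups overlapped and only atrazine replicate 2 stood higher. The change was 0.091 (SE 0.13, 95% confidence interval -0.22 to 0.40, adjusted p = 0.557), but -1.03 (adjusted p = 0.000101) under median and -0.093 (adjusted p = 0.623) under housekeeping scaling. The 2 probes' changes differed by -0.85, the brighter minus the dimmer, which reached the smallest p that 3 arrays against 3 allow (exact permutation test, two-sided, p = 0.1).

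HSP90AB1 encodes HSP90 beta, the constitutive isoform. Its probe ILMN_1673711 read 13.49, 13.22 and 13.55 in atrazine, against 12.57, 12.68 and 12.55 in DMSO. All atrazine arrays lay above all DMSO arrays, for a log2 change of 0.82 (SE 0.12, adjusted p = 0.000703), a 1.76-fold rise. Under median scaling it was 0.27 and no longer passed (adjusted p = 0.165), and under housekeeping scaling 1.21 (adjusted p = 1.51e-05). In raw intensity HSP90AB1 gave 7042, 6124 and 9938 units in atrazine, against 9076, 14637 and 8001 units in DMSO, a mean 1.37-fold higher in DMSO. The brighter HSP90AA1 probe gave 1391, 1236 and 2032 units in atrazine, against 6365, 10860 and 6245 units in DMSO, a mean 5.04-fold higher in DMSO.

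HSPB1, the small heat shock protein HSP27, rose under quantile normalization. Its probe ILMN_1674236 read 10.62, 10.02 and 10.70 in atrazine, against 9.78, 9.71 and 9.83 in DMSO. The groups were separate, with atrazine replicate 2 closest to DMSO. The log2 change was 0.67 (SE 0.18, adjusted p = 0.0135), a 1.59-fold rise. It was 0.43 (adjusted p = 0.0497) under housekeeping scaling and turned to -0.51 under median scaling, which did not pass (adjusted p = 0.0782). Relative to the median of all tested probes HSPB1 stood higher in each case, by 0.85 after quantile normalization and by 0.39 after either other scaling.

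**Figure D3:**
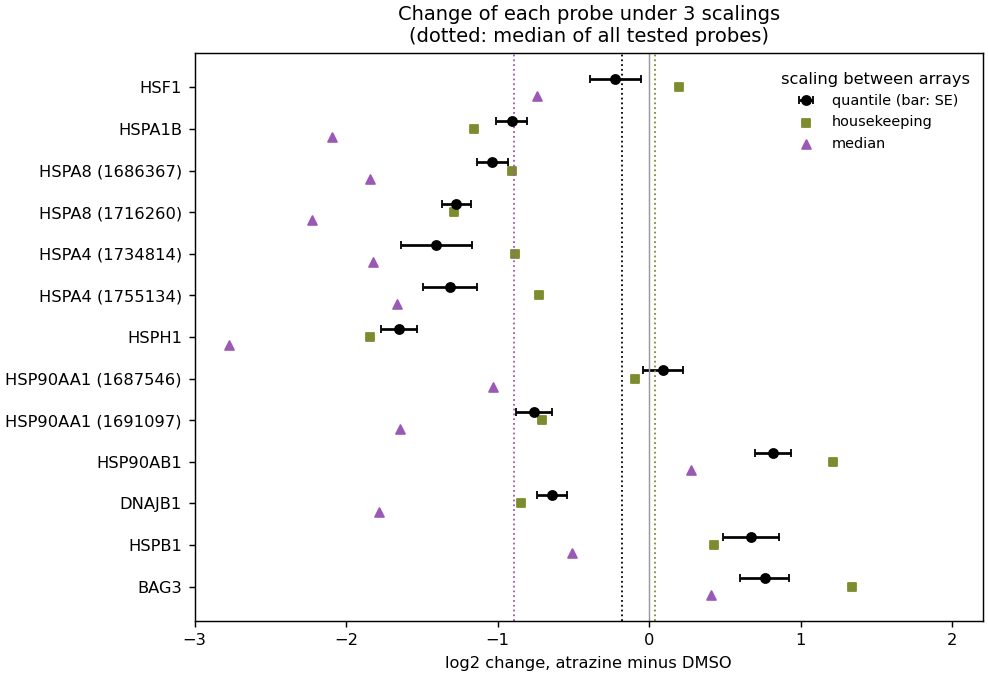
Log2 change (atrazine minus DMSO, x axis) of each of the 13 probes (y axis) after quantile normalization (black circles, bars are SE), housekeeping scaling (green squares) and median scaling (purple triangles), with the median of all tested probes under each scaling as a dotted line of the same colour. The 8 falls stay below 0 under all 3, BAG3 and HSP90AB1 stay above 0, and HSPB1, HSF1 and the dimmer HSP90AA1 probe change sign with the scaling.

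Differences between 2 genes on the same array do not move when all values of an array shift together, and 8 such pairs were compared on each gene's brightest probe. With 3 arrays against 3 no exact permutation test can go below p = 0.1 (two-sided), and the smallest value adjusted over the 8 pairs was 0.133. HSP90AA1 minus HSP90AB1 was -2.04, -2.07 and -2.06 in atrazine, against -0.49, -0.56 and -0.39 in DMSO. The log2 change of HSP90AA1 was thus 1.58 below that of HSP90AB1 (difference -1.58, SE 0.050, exact permutation p = 0.1), and -1.92 under median or housekeeping scaling. The change of HSPA8 minus that of its cochaperone BAG3 was -1.80 (SE 0.19, exact permutation p = 0.1), and -2.25 under those scalings.

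Within the HSP70 system the other differences depended on the processing. The change of HSPA8 minus that of HSPA1B was -0.13 (SE 0.12, exact permutation p = 0.4), and 0.25 under median or housekeeping scaling. That of HSPH1 minus HSPA4 was -0.24 (SE 0.20, exact permutation p = 0.4), where HSPA4 was not above background on atrazine replicate 2. It was -0.95 under those scalings, -0.69 without background correction and -0.56 with offset 50. It was -0.092 without atrazine replicate 1 and -0.012 without atrazine replicate 3, so its size is not settled. That of HSPA8 minus DNAJB1 was -0.39 (SE 0.092, exact permutation p = 0.1), and -0.061 under those scalings.

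Paralogues in other compartments gave a mixed picture. HSPA5, the HSP70 of the endoplasmic reticulum, had a log2 change of -2.05 (SE 0.091, adjusted p = 5.31e-06), and was close to background in atrazine (detection p-values of 0.0170 to 0.0311). The change of HSPA8 lay 1.01 above it (SE 0.066, exact permutation p = 0.1), but 0.69 with offset 50 and 0.48 without background correction. HSP90B1, the HSP90 of that compartment, fell by 0.38 (SE 0.12, adjusted p = 0.0255), and the change of HSP90AB1 lay 1.20 above it (SE 0.067, exact permutation p = 0.1). HSPA9, the HSP70 of mitochondria, fell by 0.69 (SE 0.11, adjusted p = 0.00134), and the change of HSPA8 minus that of HSPA9 was -0.35 (SE 0.14, exact permutation p = 0.1), but -0.12 under median or housekeeping scaling. TRAP1, the mitochondrial HSP90, rose by 0.72 (SE 0.11, adjusted p = 0.000905) but turned to -0.50 (adjusted p = 0.0037) under median scaling. HSPE1, the mitochondrial cochaperonin, fell by 0.77 (SE 0.12, adjusted p = 0.00123), while its chaperonin partner HSPD1 gave 0.096 and -0.07 on 2 probes, neither past the threshold, and -0.78 and -0.97 (adjusted p = 0.000355 and 0.000821) under median scaling. HYOU1, an HSP110-type protein of the endoplasmic reticulum, gave 0.19 (SE 0.098, adjusted p = 0.119), and -0.65 (adjusted p = 0.000795) under median scaling.

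**Figure D4:**
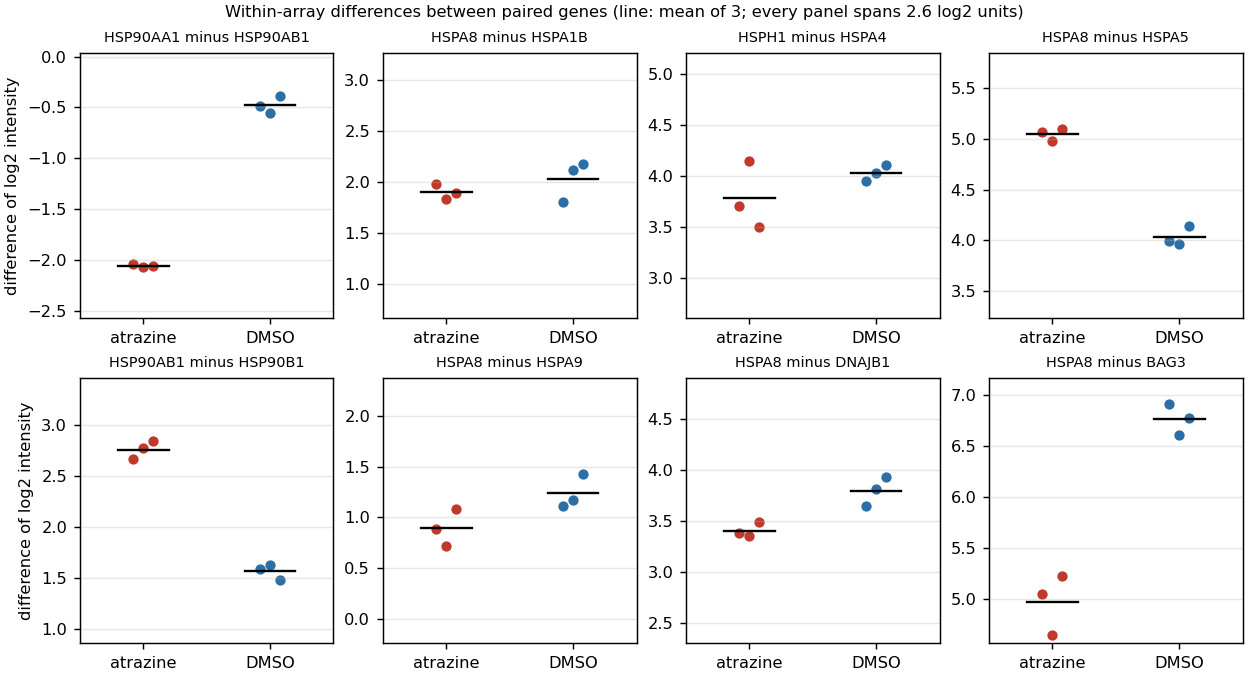
Difference of normalized log2 intensity between 2 genes on the same array (y axis; every panel spans the same range) for the 8 compared pairs, with atrazine arrays in red, DMSO arrays in blue and group means of 3 arrays as lines. HSP90AA1 minus HSP90AB1 is near -2.06 in atrazine and between -0.56 and -0.39 in DMSO, while HSPA8 minus HSPA1B and HSPH1 minus HSPA4 overlap between the groups.

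The wider chaperone network was read from 7 lists of companion genes that assist or resemble the members. Of 64 tested probes (57 genes), 32 were lower, 8 higher and 24 did not pass, which is 50% lower and 12.5% higher, beside 39.6% and 27.7% of all tested probes. Their median log2 change was -0.44. Of the 32 falls, 15 passed the detection filter through DMSO alone, as did 1 of the 8 rises through atrazine alone, so these counts carry that selection, as do those of the single lists below. Among the 46 companion probes detected on all 6 arrays 17 were lower (37%) and 7 higher (15.2%), with a median of -0.24, beside 30.4% and 33.8% of all such probes. Under median scaling 51 were lower and 5 higher (68.5% and 15.3% of all tested probes), and under housekeeping scaling 30 and 15 (31.8% and 37.5%). Lower under each of the 3 scalings were 24 of the 64 (37.5%) and higher 2 (3.12%), beside 25.9% and 14.3% of all tested probes.

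Among further HSP70 and HSP110 genes, 3 of 5 tested probes were lower and none higher, beside 39.6% and 27.7% of all tested probes. HSPA1L, an HSP70 close in sequence to HSPA1B, fell with a log2 change of -1.29 (SE 0.10, adjusted p = 4.76e-05) and was detected on 2 of 3 atrazine arrays, and HSPA14, an HSP70 of the ribosome-associated complex, gave -1.12 (SE 0.12, adjusted p = 0.000148). The third was HSPA1A, described above and named after its value was seen. Among J-domain proteins, 9 of 14 probes were lower and 2 higher, with a median of -0.54. DNAJC5, the synaptic vesicle cochaperone CSP alpha, was detected on 0 atrazine arrays and fell at least 1.71-fold (adjusted p = 4.76e-05) after quantile normalization, while under housekeeping scaling its log2 change was -0.41 (adjusted p = 0.0326), smaller than that bound. DNAJB12, a membrane-anchored J protein, was not above background in atrazine on either of its 2 probes. One was at least 1.68-fold lower (adjusted p = 3.28e-05), with a log2 change of -0.50 under housekeeping scaling (adjusted p = 0.0174), again smaller than the bound, and the other allows no fold at its level and turned to 0.50 (adjusted p = 0.0188) under housekeeping scaling.

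Factors that release or hand over HSP70 clients were lower on 4 of 7 probes and higher on 1, beside 39.6% and 27.7% of all tested probes. BAG5 fell by 1.75 (SE 0.16, adjusted p = 9.56e-05) and was above background on 1 of 3 atrazine arrays. BAG6, which guards membrane proteins on their way to insertion, rose by 1.79 (SE 0.21, adjusted p = 0.000292), and by 0.63 (adjusted p = 0.0281) under median scaling. HSP90 cochaperones were lower on 4 and higher on 2 of 12 probes, with a median of -0.073. CHORDC1 fell by 1.61 (SE 0.23, adjusted p = 0.000685) and was above background on 1 of 3 atrazine arrays. The phosphatase PPP5C was detected on 0 DMSO arrays, with a rise of at least 2.03-fold by the bound described below (adjusted p = 5.23e-05). It was near background in atrazine too, with detection p-values of 0.0212 to 0.0353. Raw intensity was 93.8, 104.4 and 115.6 units in atrazine, against 84.3, 109.3 and 83.4 units in DMSO. The lowest detected normalized value was 5.676 to 6.254 on atrazine arrays and 5.322 to 5.355 on DMSO arrays, so this bound is uncertain.

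The chaperonin CCT, which folds actin and tubulin, and prefoldin, which feeds it, were lower on 8 and higher on 2 of 16 probes, with a median of -0.49. That is 50% and 12.5%, beside 39.6% and 27.7% of all tested probes. CCT5 fell by 1.16 (SE 0.11, adjusted p = 8.46e-05). PFDN4 was detected on 0 of 3 atrazine arrays and 3 of 3 DMSO arrays, at a level that allows no fold, and turned to 0.49 (adjusted p = 0.0222) under housekeeping scaling. Among relatives and regulators of HSF1, 4 of 9 probes were lower and 1 higher (44.4% and 11.1%), a share of falls near that of all tested probes. VCP, a segregase that unfolds ubiquitinated proteins, fell by 1.05 (SE 0.12, adjusted p = 0.000251). HDAC6, a cytosolic deacetylase that takes part in releasing HSF1, rose by 0.66 (SE 0.10, adjusted p = 0.00101) but gave -0.42 (adjusted p = 0.0102) under median scaling. Of 6 further small heat shock protein genes on the array 1 was tested, HSPB2, with a log2 change of -0.056 (adjusted p = 0.649), and 1.20 (adjusted p = 7.85e-05) under housekeeping scaling.

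**Figure D5:**
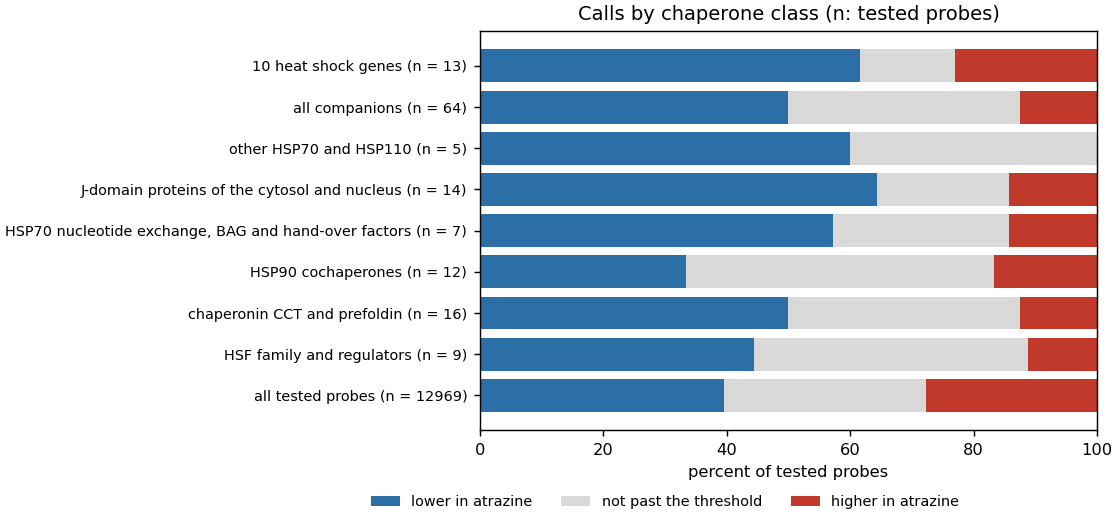
Share of tested probes (x axis, percent) that were lower in atrazine (blue), did not pass the threshold (grey) or were higher in atrazine (red), for the 10 heat shock genes, all companion genes, 6 of their 7 classes and all tested probes, with the number of tested probes in parentheses. Falls make up 61.5% of the 13 probes and 39.6% of all tested probes under quantile normalization, and the shares move with the scaling.

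The long heat shock element was in the promoter windows of 45 tested genes, each read from its brightest probe. Of these 24 were lower (53.3%) and 11 higher (24.4%), with a median log2 change of -0.55. These counts too include probes that passed the filter through 1 group. They were made after quantile normalization only, and the other scalings were not tried for them. Among all 8848 tested genes with a window, 40.7% were lower and 26.1% higher, with a median of -0.20. Leaving out HSPA8, HSP90AA1 and HSP90AB1, 22 of 42 were lower and 10 higher, with a median of -0.50. Among the members themselves, those with the long motif in a window included both falls (HSPA8, HSP90AA1 on its brighter probe) and the rise of HSP90AB1. Those with neither motif included the largest member fall under each of the 3 scalings (HSPH1) and the rise of BAG3.

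Across the 6 arrays, the companion or member probe most like HSF1 was that of DNAJB5 (Pearson r = 0.868), followed by STIP1 (0.738) and CDC37 (0.728), of 76 probes compared. For the brighter probe of HSPA8 they were the 2 probes of DNAJB12 (0.997 and 0.993) and VCP (0.993), of 75 probes. These 6 points fall into the 2 treatment groups and share the arrays' brightness, so the values describe these arrays only.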

How the data were processed

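The authors deposited a table of raw signal intensity per probe on each of the 6 arrays, not scaled between arrays as far as the values tell, and a detection p-value for each probe (both per the file headers). Processed intensity values were deposited too. On every array these kept the rank order of the raw values (Spearman rho of 1) and lay within 1% of quantile-normalized raw intensity for 100% of probes. Per the labels, TRIzol-isolated RNA was turned into biotinylated cRNA. The scanner software and the chip of each array are not given in the sources used here.

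From the raw intensities, limma 3.58.1 in R 4.3.3 was used for normexp background correction inferred from the detection p-values (offset 16), quantile normalization on the log2 scale, lmFit and eBayes, two-sided, atrazine minus DMSO. Each probe was its own feature. Tested were probes that 1 group or both detected on all 3 arrays (detection p-value under 0.05), and p-values were adjusted by Benjamini-Hochberg over all 12969 tested probes (threshold 0.05). Symbols came from the platform annotation (19715 probes with 1, 0 with several, 2469 with none), of which 19695 were updated by gene ID. A probe above background on no array of a group is given a lower bound (at least N-fold): the other group's mean over a floor that averages, array by array, the probe's own value or the lowest detected value, whichever was higher. The procedure was tested on simulated data in which few or no probes changed. That test therefore does not cover differences as broad as those between these groups. Promoter windows are RefSeq's, GRCh38.p14. The number of arrays limits the precision.

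The members, companion lists and tests were chosen with earlier results of these data known. The genes named are all members and, per companion list, the 2 of smallest p. The companion lists held 78 genes, of which 69 were on the array. Alternatives were other background, offset, scaling and filter settings, the authors' processed values, 1 probe per gene, other variance estimates, array weights, a replicate block and leaving out each array.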

Additional observations from a re-analysis of the deposited data

How the results depend on the processing

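Of the 13 probes, the 8 falls passed in every setting that held them. Under median scaling 1 member probe was called higher, and HSP90AB1 no longer passed (0.27). HSPB1 turned to -0.51 and the dimmer HSP90AA1 probe to -1.03 there. Under housekeeping scaling HSF1 turned to 0.20 and that HSP90AA1 probe to -0.093. Leaving out 1 array at a time gave -0.042 (without atrazine replicate 2) to 0.16 for this HSP90AA1 probe. The difference between HSPA8 and HSPA1B turned to 0.25 under both scalings. Of the companion probes, 51 were lower and 5 higher under median scaling, and 15 higher under housekeeping scaling. With a detection p under 0.01 on all 6 arrays 3985 of 6178 probes passed in all, 1882 lower and 2103 higher, against 5137 and 3597, and 14 of 36 companion probes were lower and 7 higher, with a median of -0.028. Among probes detected on all 6 arrays at 0.05 in the same fit, a count chosen after seeing the data, 5807 of 9055 passed, and 17 of 46 companion probes were lower. Near background, changes shrank without background correction, to 0.44 for BAG3 and to -0.86 and -0.78 for HSPA4. The cause of the shifts was not tested.

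Leaving out 1 array at a time gave 7507 to 9484 calls in all, 8 to 9 member probes lower and 3 higher, and 24 to 35 companion probes lower and 6 to 8 higher. With the replicate number as a block, 8 member probes were lower and 3 higher and 7598 probes passed in all (8734 without it). Deviations of same-numbered arrays from their group means correlated at -0.174, -0.44 and -0.293. With 3 arrays in each mean and atrazine replicate 2 apart, these values cannot tell whether same-numbered arrays shared a culture or batch. The labels give only the number. HSF1, HSPA4 and BAG3 are limited by signals near background.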
